A study of Homo sapiens with 12 samples.

Results

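RAB GTPases are the largest branch of the Ras superfamily of small GTPases, and each marks a particular membrane of the cell. Loaded with GTP by a guanine nucleotide exchange factor (GEF), a RAB recruits effectors such as motors, tethers and fusion factors. A GTPase-activating protein (GAP) then returns it to the GDP form, which GDP dissociation inhibitor takes off the membrane. In neurons this cycle is known for its part in synaptic vesicle release, axonal transport of endosomes and lysosomes, and receptor recycling.

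The RAB genes were taken by symbol as every gene named RAB followed by a number, with at most a letter and a digit after it. In all, 61 such genes were measured. All 61 were among the 19016 genes tested in the NGN2-induced neurons and 54 of them were among the 16406 genes tested in the motor neurons. The 7 genes listed only in the first were RAB7B, RAB19, RAB25, RAB37, RAB38, RAB42 and RAB44. RAB genes without a row in either list, such as RAB5B, were not analysed here.

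The RNA-seq libraries compared knockdown of SMN, the protein lost in spinal muscular atrophy, with a scrambled control (SCR) in 2 kinds of human neuron. Induced motor neurons (iMNs) were made with small molecules from an induced pluripotent stem cell line carrying a tdTomato reporter under the HB9 promoter and were sorted for that reporter. The i3Ns were glutamatergic neurons made from the H1 embryonic stem cell line by doxycycline-induced NGN2. Neurons of all groups carried a lentiviral doxycycline-inducible shRNA, either scrambled or directed at SMN1 and SMN2 (SMN-KD), for 12 days, with 3 libraries per group and 12 in all. Each neuron type came from a single stem cell line, so neuron type, line and protocol cannot be told apart. Nothing states that the 3 libraries of a group came from separate differentiations, so the p-values measure the spread between these libraries, which may be technical.

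The deposited values are a mean normalized count per gene over the 6 libraries of a neuron type, the log2 ratio of SMN-KD to SCR (log2 fold change), its standard error (SE), and an adjusted p from the DESeq2 Wald test. Values of single libraries and depths were not used here. The SCR and SMN-KD levels below were therefore derived from the mean and the fold change, and carry the error of that fold change. A gene is said to have risen or fallen where the adjusted p was under 0.01, and a differentially expressed gene (DEG) also had an absolute log2 fold change above 1. Summed over 5 identifiers, SMN1 and SMN2 stood at 1923 in SCR and 424 in SMN-KD iMNs, and at 1839 and 318 in i3Ns. All 5 pan-neuronal markers were high in both neuron types and all 5 fell, their sum going from 419267 to 361034 in iMNs and from 692360 to 490985 in i3Ns. The tables were normalized separately, so levels across them are only set side by side. All 8 motor neuron markers were listed in each, the transcription factors MNX1, ISL1, ISL2 and LHX3 with the higher mean in i3Ns (MNX1 2279 against 430) and SLC5A7, SLC18A3 and PRPH with the higher mean in iMNs (SLC5A7 8460 against 2472), and CHAT was at 533 in iMNs and 527 in i3Ns. Of 8 glutamatergic forebrain markers, 7 were listed in i3Ns and 6 in iMNs. SLC17A6 was at 11237 in i3Ns and 593 in iMNs, SLC17A7 at 6490 and 50.1, and NEUROD1 at 4039 and 88.8. CUX2 (2033 and 1734) and POU3F2 (2672 and 1792) lay closer together, and CUX1 was higher in iMNs (5354 and 6662). NEUROD2 was listed only in i3Ns (1215) and NEUROD6 in neither. In bulk RNA, fewer cells of a type and less RNA per cell cannot be told apart.

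RAB mRNAs moved in both directions in each neuron type, with falls more frequent than rises. In iMNs, 20 of 54 RAB genes fell and 11 rose, and 23 did not pass the test. Among all genes tested in iMNs, 18.7% fell and 17.1% rose. The 3 DEGs were RAB31, RAB6A and RAB9A, all lower, where 2.37% of all genes were lower DEGs and 0.969% were higher DEGs. In i3Ns, 22 of 61 fell, 15 rose and 24 did not pass, against 25.7% and 22.8% of all genes. RAB3B, RAB31, RAB37, RAB20 and RAB13 were lower DEGs there, where the share of all genes was 9.53%, and RAB4B, RAB21, RAB10 and RAB28 were higher DEGs, where it was 4.23%. The median log2 fold change of the RAB genes was -0.09 in iMNs and -0.10 in i3Ns, and that of all genes was 0.001 and 0.01.

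RAB genes also had more counts than the median gene, and genes with more counts pass the test more readily. Their median mean normalized count was 2163 in iMNs and 1103 in i3Ns, where the medians of all genes were 875 and 577. Among all genes with a mean of at least 100, 23.1% fell and 21.2% rose in iMNs, and 32.8% fell and 31.5% rose in i3Ns. Of the RAB genes of that level, 20 of 49 fell (40.8%) and 11 rose (22.4%) in iMNs. In i3Ns, 20 of 50 fell (40%) and 15 rose (30%). The shares that rose were thus near those of all genes. The derived counts of all RAB genes together went from 288574 to 241420 in iMNs and from 222431 to 185808 in i3Ns, and RAB3B alone supplied 23345 of the first difference and 25558 of the second.

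**Figure D1:**
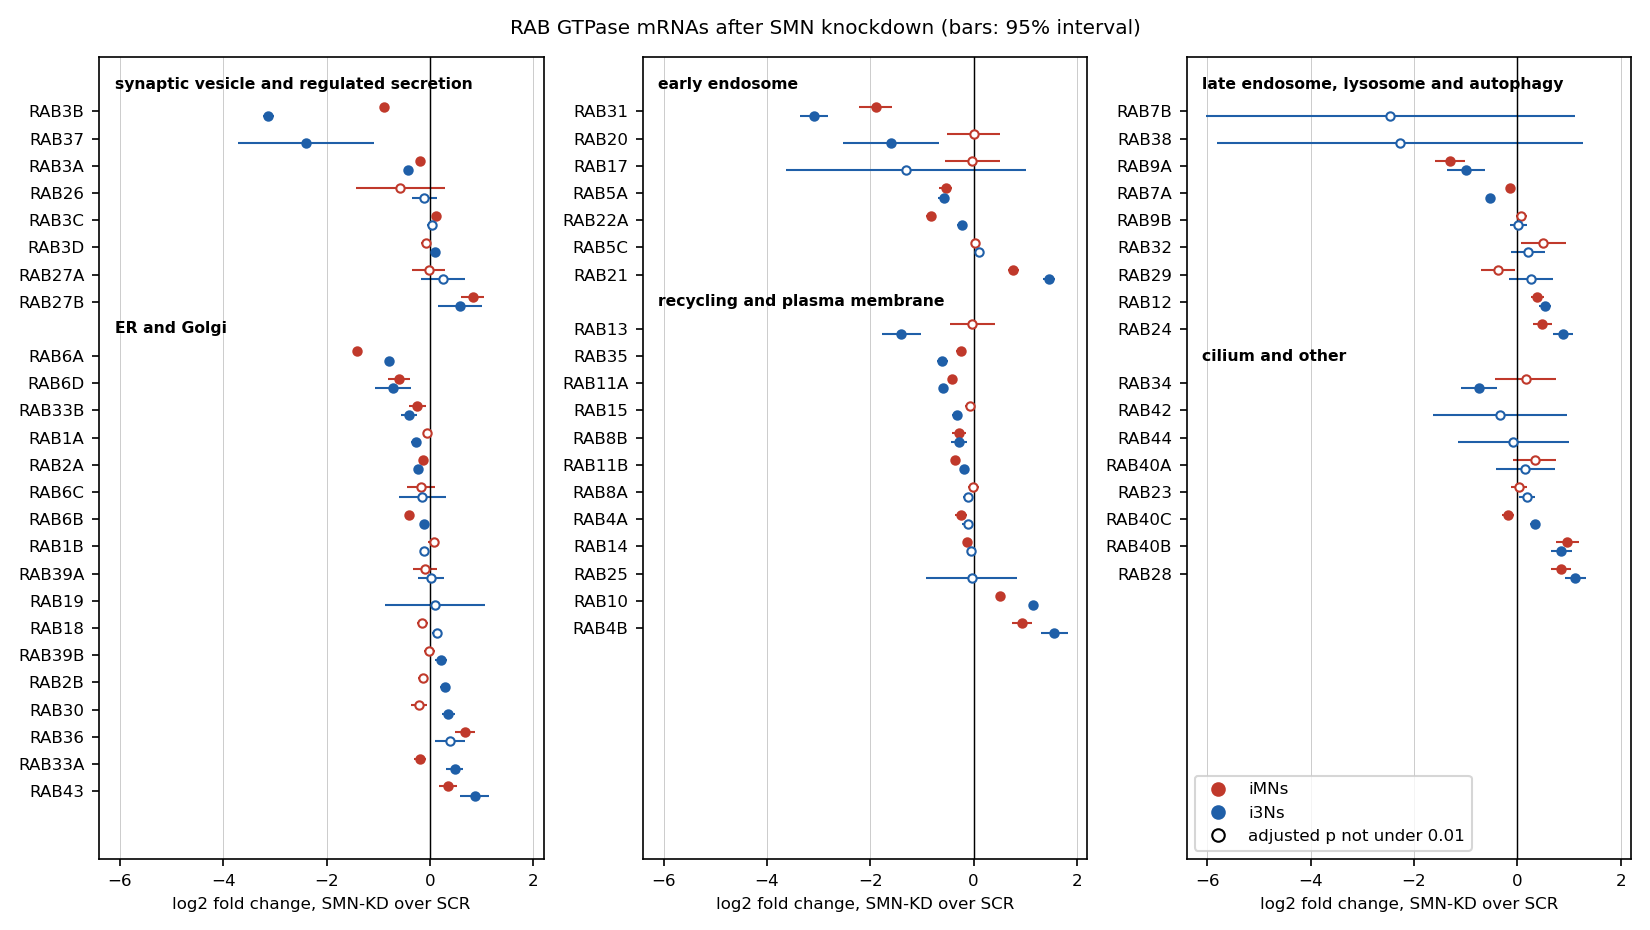
Log2 fold change after SMN-KD relative to SCR (x axis) for each RAB gene, grouped by the membrane it is known for, in iMNs (red) and i3Ns (blue). Points are the deposited estimates from 3 libraries per group, bars are 95% intervals, and open points did not reach an adjusted p under 0.01. RAB3B and RAB31 lie farthest to the left with short intervals, and RAB7B and RAB38, listed only in i3Ns, have the widest ones.

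RAB3B, a RAB of regulated secretion, fell in each neuron type and had the most negative fold change of all RAB genes in i3Ns. Of the RABs of secretion, 2 of 7 fell and 2 rose in iMNs (28.6% each, where 18.7% and 17.1% of all genes did), and 3 of 8 fell and 2 rose in i3Ns (37.5% and 25%, against 25.7% and 22.8%). RAB3A, RAB3B, RAB3C and RAB3D sit on synaptic and secretory vesicles and bind release factors of the active zone. RAB3B (ENSG00000169213, GRCh38 chr1:51907956-51990700, minus strand) had a derived level of 50860 in SCR and 27515 in SMN-KD iMNs, and of 28871 and 3314 in i3Ns. The knockdown level was thus 54.1% of the control level in iMNs and 11.5% in i3Ns. Its log2 fold change was -0.89 (SE 0.02) in iMNs and -3.12 (SE 0.06) in i3Ns, with the adjusted p listed at 0 in each table. The i3N fold change minus the iMN fold change was -2.24 (SE 0.06, adjusted p = 1.05e-269, Wald z of the difference), so the fall was the larger in i3Ns.

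The other RAB3 genes moved little beside it. RAB3A, the main RAB of synaptic vesicles, went from 15122 to 13291 in iMNs (log2 fold change -0.19, SE 0.03) and from 6305 to 4690 in i3Ns (-0.43, SE 0.04), and fell in each. RAB3C rose in iMNs from 32405 to 35344 (0.13, SE 0.03), and its value in i3Ns was 0.04 (SE 0.05, adjusted p = 0.462). RAB3D, a RAB of secretory granules, rose in i3Ns from 6037 to 6505 (0.11, SE 0.04), and its value in iMNs was -0.08 (SE 0.05, adjusted p = 0.147). The fold change of RAB3B minus that of RAB3A was -0.70 (95% interval -0.78 to -0.62) in iMNs and -2.70 (-2.84 to -2.56) in i3Ns, and the gaps to RAB3C and RAB3D were wider in each. Intervals for paralogue pairs, here and below, treat the errors of both genes as independent, although both were measured in the same libraries.

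Counts per kilobase of transcript allow the levels of the RAB3 genes to be compared. Per kilobase, RAB3A led the family in each neuron type, at 10108 in SCR iMNs and 4214 in SCR i3Ns. RAB3B made up 21.1% of the RAB3 level in SCR iMNs and 13.4% after knockdown. In i3Ns its share went from 25.0% to 4.25%. The summed RAB3 level per kilobase fell by 14.8% in iMNs and fell by 32.5% in i3Ns, values that have no test.

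**Figure D2:**
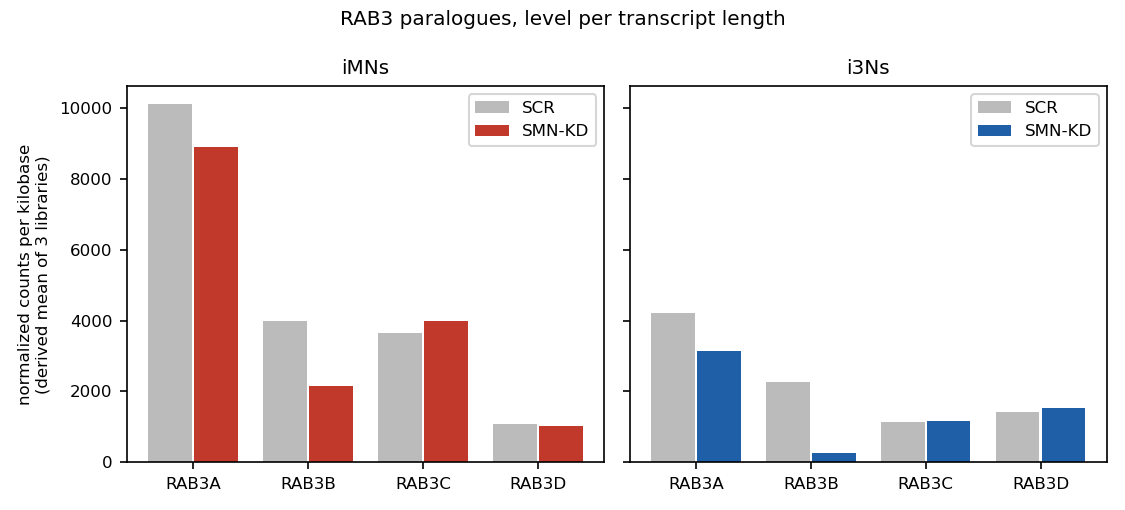
Normalized counts per kilobase of transcript (y axis) for the 4 RAB3 genes in SCR (grey) and SMN-KD (coloured) neurons, in iMNs on the left and i3Ns on the right. Bars are group means derived from the deposited mean and fold change and so carry no error bars. In i3Ns the RAB3B bar drops to 259 from 2259, while RAB3C and RAB3D stay near their SCR bars.

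Other RABs of secretion were weakly expressed. RAB27B, which docks secretory granules, rose from 579 to 1025 in iMNs (log2 fold change 0.83, SE 0.12) and from 168 to 252 in i3Ns (0.59, SE 0.22, adjusted p = 0.00765). Its relative RAB27A stood near 190 in both groups of iMNs and did not pass the test in either neuron type. RAB37, a RAB of secretory granules listed only in i3Ns, fell from 42.3 to 8.03 (-2.40, SE 0.67). RAB26, known from synaptic vesicle turnover, did not pass in either.

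Among RABs of the endoplasmic reticulum and Golgi, 6 of 16 fell and 2 rose in iMNs (37.5% and 12.5%, against 18.7% and 17.1% of all genes), and 6 of 17 fell and 5 rose in i3Ns (35.3% and 29.4%, against 25.7% and 22.8%). RAB6A, which drives transport from the Golgi, was the clearest of them. RAB6A (ENSG00000175582, chr11:73675638-73761137, minus strand) went from 14921 to 5607 in iMNs, a log2 fold change of -1.41 (SE 0.04, adjusted p = 8.35e-283). In i3Ns it went from 12013 to 6910, or -0.80 (SE 0.03, adjusted p = 9.71e-139). The fall was thus larger in iMNs, and the fold changes differed by 0.61 (SE 0.05, adjusted p = 1.49e-32).

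RAB6B, the neuronal paralogue of RAB6A and among the most abundant RABs per kilobase in both neuron types, fell less. It went from 33232 to 25114 in iMNs (-0.40, SE 0.03) and from 29296 to 26900 in i3Ns (-0.12, SE 0.03). The fold change of RAB6A minus that of RAB6B was -1.01 (95% interval -1.10 to -0.92) in iMNs and -0.67 (-0.76 to -0.59) in i3Ns. RAB6D and RAB6C are near copies of RAB6A. They share 60.6% and 69.0% of their 31-base words with other genes, most of these with each other. Their counts are uncertain for that reason. RAB6A itself shares 35.2% of its words with other genes (28.3% with RAB6D), so its values carry part of the same limit. RAB6D fell in each neuron type (-0.60, SE 0.11, and -0.72, SE 0.18), and RAB6C did not pass in either.

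RAB1A, RAB1B, RAB2A and RAB2B carry traffic between the endoplasmic reticulum and the Golgi and changed by at most 0.29. RAB2A fell from 8887 to 8117 in iMNs and from 11009 to 9370 in i3Ns. RAB1A fell in i3Ns from 9357 to 7726 and was at 8831 and 8500 in iMNs, where it did not pass. RAB2B rose in i3Ns (0.29, SE 0.05), and its value in iMNs was -0.13 (SE 0.05, adjusted p = 0.0203). RAB33A, a Golgi RAB of brain and immune cells, fell in iMNs from 2520 to 2219 (-0.18, SE 0.06) and rose in i3Ns from 864 to 1206 (0.48, SE 0.09). RAB33A was 1 of 2 RAB genes called in opposite directions. The other, RAB40C, fell from 2333 to 2053 in iMNs and rose from 2030 to 2569 in i3Ns. With standard errors doubled, the RAB33A calls were lost in iMNs (adjusted p = 0.395) and in i3Ns (adjusted p = 0.0192), and the RAB40C call was lost in iMNs (adjusted p = 0.396) and held in i3Ns (adjusted p = 0.00516). RAB33B, which binds an autophagy complex, fell in each neuron type (-0.24, SE 0.09, and -0.40, SE 0.08). RAB36 rose in iMNs (0.68, SE 0.10), RAB30 and RAB39B rose in i3Ns (0.36, SE 0.07, and 0.21, SE 0.06), and RAB43 rose in each. RAB43 shares 90.9% of its 31-base words with other genes, mainly a read-through transcript, so its value is uncertain. RAB18, RAB19 and RAB39A did not pass in either neuron type where measured.

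RABs of early endosomes included the deepest fall in iMNs and a clear rise in each neuron type. RAB31 (ENSG00000168461, chr18:9708275-9862551, plus strand), which works between the trans-Golgi network and endosomes, went from 446 to 120 in iMNs and from 1144 to 135 in i3Ns. Its log2 fold change was -1.89 (SE 0.16, adjusted p = 3.12e-31) in iMNs and -3.09 (SE 0.13, adjusted p = 6.84e-117) in i3Ns, a difference of -1.19 (SE 0.21, adjusted p = 1.08e-07). RAB22A, its close relative, fell from 6582 to 3728 in iMNs (-0.82, SE 0.05) and from 5193 to 4471 in i3Ns (-0.22, SE 0.05). The RAB22A fall was larger in iMNs, with a difference of 0.60 (SE 0.07, adjusted p = 4.98e-17).

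RAB5A, which controls the fusion of early endosomes, fell in each neuron type. It went from 3710 to 2546 in iMNs (-0.54, SE 0.06) and from 4082 to 2727 in i3Ns (-0.58, SE 0.05), and the difference between neuron types was -0.04 (SE 0.08, adjusted p = 0.771). RAB5C, its paralogue, was at 4720 and 4828 in iMNs and at 4800 and 5178 in i3Ns and did not pass in either. The fold change of RAB5A minus that of RAB5C was -0.58 (95% interval -0.72 to -0.43) in iMNs and -0.69 (-0.83 to -0.55) in i3Ns. RAB5C shares 46.0% of its 31-base words with other genes.

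RAB21, an early endosome RAB that traffics integrins, rose instead. RAB21 (ENSG00000080371, chr12:71754863-71800286, plus strand) went from 2727 to 4647 in iMNs (0.77, SE 0.05, adjusted p = 4.28e-45) and from 1836 to 5068 in i3Ns (1.46, SE 0.06, adjusted p = 9.12e-140). The rise was larger in i3Ns by 0.70 (SE 0.08, adjusted p = 3.66e-17). RAB20 fell in i3Ns from 47.9 to 15.9 (-1.59, SE 0.47) and stood at 18.2 in both groups of iMNs. RAB17 was weakly expressed and did not pass.

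Of the recycling RABs, 6 of 11 fell and 2 rose in iMNs, and 6 of 12 fell and 2 rose in i3Ns. The shares that fell were 54.5% and 50%, where 18.7% and 25.7% of all genes fell, and 23.1% and 32.8% of those with a mean of at least 100, and counts this small have no test here. RAB11A and RAB11B mark recycling endosomes and carry receptors into axons and dendrites. RAB11A went from 7782 to 5851 in iMNs (-0.41, SE 0.04) and from 11064 to 7290 in i3Ns (-0.60, SE 0.04). RAB11B went from 10271 to 7948 in iMNs (-0.37, SE 0.04) and from 7603 to 6656 in i3Ns (-0.19, SE 0.04). In iMNs the fold changes of this pair differed by -0.04, with a 95% interval of -0.15 to 0.06, and in i3Ns by -0.41 (-0.51 to -0.31). The summed level of the pair per kilobase fell by 23.0% in iMNs and fell by 19.4% in i3Ns.

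RAB35, a RAB of fast recycling and neurite growth, fell from 3731 to 3154 in iMNs (-0.24, SE 0.05) and from 4193 to 2751 in i3Ns (-0.61, SE 0.05). RAB8B fell in each (-0.29, SE 0.07, and -0.28, SE 0.08), and RAB8A did not pass in either. RAB4A and RAB14 fell in iMNs (-0.24, SE 0.06, and -0.12, SE 0.04), and RAB15 fell in i3Ns (-0.33, SE 0.05).

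RAB10 and RAB4B were the recycling RABs that rose. RAB10 (ENSG00000084733, chr2:26034084-26137454, plus strand), which delivers vesicles to the plasma membrane and growing axons, rose from 7551 to 10703 in iMNs (0.50, SE 0.04, adjusted p = 7.93e-39). In i3Ns it rose from 5609 to 12476 (1.15, SE 0.04, adjusted p = 2.16e-205), more than in iMNs by 0.65 (SE 0.05, adjusted p = 3.11e-32). RAB4B rose from 512 to 979 in iMNs (0.94, SE 0.10) and from 227 to 672 in i3Ns (1.56, SE 0.13). Since 100% of the 31-base words of RAB4B also lie in overlapping read-through genes, its counts cannot be assigned to RAB4B alone.

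RAB13, a RAB of cell junctions, fell in i3Ns from 484 to 183 (-1.40, SE 0.19, adjusted p = 2.39e-13) and was at 43.7 and 43.0 in iMNs. RAB13 shares 57.6% of its 31-base words with an overlapping gene on the same strand. RAB25, an epithelial RAB, was listed only in i3Ns, at 16.4 and 16.0, and did not pass.

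Markers of other cells also moved in i3Ns, where RAB13, RAB20, RAB31 and RAB34 fell. The summed level of the 7 mesenchymal markers in i3Ns was 12275 in SCR and 2057 in SMN-KD, with 5 of 7 lower and 1 higher, and that of the 4 proliferation markers was 1931 and 359, with all 4 lower. Of the 8 glial markers, 4 were listed in i3Ns and 3 of them fell, their sum going from 2231 to 782, and the defining markers GFAP, AQP4 and SOX10 were in neither table. The pluripotency markers went up in i3Ns, where 4 of 5 were listed and 2 rose (LIN28A and DPPA4), their sum going from 1623 to 7237. In iMNs the mesenchymal sum went the other way, from 2136 to 3705, with 5 of 6 listed markers higher. RAB31 fell in iMNs beside that rise. RAB34, a RAB of cilia and macropinosomes, fell in i3Ns from 314 to 188 (-0.74, SE 0.18) and was at 22.3 and 24.9 in iMNs. The difference between neuron types passed for RAB13 (adjusted p = 1.66e-05) and RAB20 (adjusted p = 0.00928) and not for RAB34 (adjusted p = 0.0261). The part of such cells in the RAB values was not tested.

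Of the RABs of late endosomes and lysosomes, 2 of 7 fell and 2 rose in iMNs (28.6% each, against 18.7% and 17.1% of all genes), and 2 of 9 fell and 2 rose in i3Ns (22.2% each, against 25.7% and 22.8%). RAB7A, the RAB of late endosomes and their axonal transport, fell from 11612 to 10578 in iMNs (-0.13, SE 0.04) and from 12019 to 8296 in i3Ns (-0.53, SE 0.04, adjusted p = 1.99e-50). The RAB7A fall was larger in i3Ns by a difference of -0.40 (SE 0.05, adjusted p = 8.51e-14). RAB9A (ENSG00000123595, chrX:13689128-13710504, plus strand), which returns mannose 6-phosphate receptors to the Golgi, went from 508 to 205 in iMNs (-1.31, SE 0.15, adjusted p = 8.27e-19) and from 276 to 138 in i3Ns (-0.99, SE 0.19, adjusted p = 7.69e-08). Its paralogue RAB9B was at 2996 and 3167 in iMNs and 1026 and 1042 in i3Ns and passed in neither.

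RAB12 and RAB24, which are tied to lysosomal degradation and autophagy, rose in each neuron type. RAB12 went from 1807 to 2358 in iMNs and from 1396 to 2020 in i3Ns, and RAB24 from 714 to 999 and from 426 to 784. RAB24 shares 57.6% of its 31-base words with the overlapping gene MXD3. RAB29 and RAB32, which interact with the kinase LRRK2, did not pass in either neuron type, nor did RAB7B and RAB38 in i3Ns, each with a mean below 10.

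In the remaining group, RAB28, a RAB of cilia and photoreceptors, rose from 447 to 801 in iMNs (0.84, SE 0.10) and from 449 to 974 in i3Ns (1.12, SE 0.10). RAB40B, a RAB that recruits a ubiquitin ligase, rose from 541 to 1058 (0.97, SE 0.11) and from 753 to 1360 (0.85, SE 0.10). RAB23, RAB40A, RAB42 and RAB44 did not pass in either neuron type where measured.

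Among the 54 RAB genes in both tables, 16 fell in each neuron type (29.6%), 9 rose in each (16.7%), 2 were called in opposite directions (3.70%) and 14 passed in neither (25.9%). Of all 16093 genes in both tables, 13.1% fell in each, 11% rose in each, 3.08% were called in opposite directions and 35.6% passed in neither. Pearson's r of the fold changes was 0.74 and Spearman's rho 0.65 across the 54 RAB genes, beside 0.40 and 0.51 across all genes, many of them weakly expressed. These are correlations across genes, which share libraries within a neuron type and are not independent replicates. Their sizes differed for 24 of the 54, or 44.4%, at an adjusted p under 0.01, where 34% of all 16093 genes differed. Of the 24, 14 had the more positive fold change in i3Ns and 10 the more negative. The median absolute difference was 0.28 for the RAB genes and 0.28 for all genes.

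**Figure D3:**
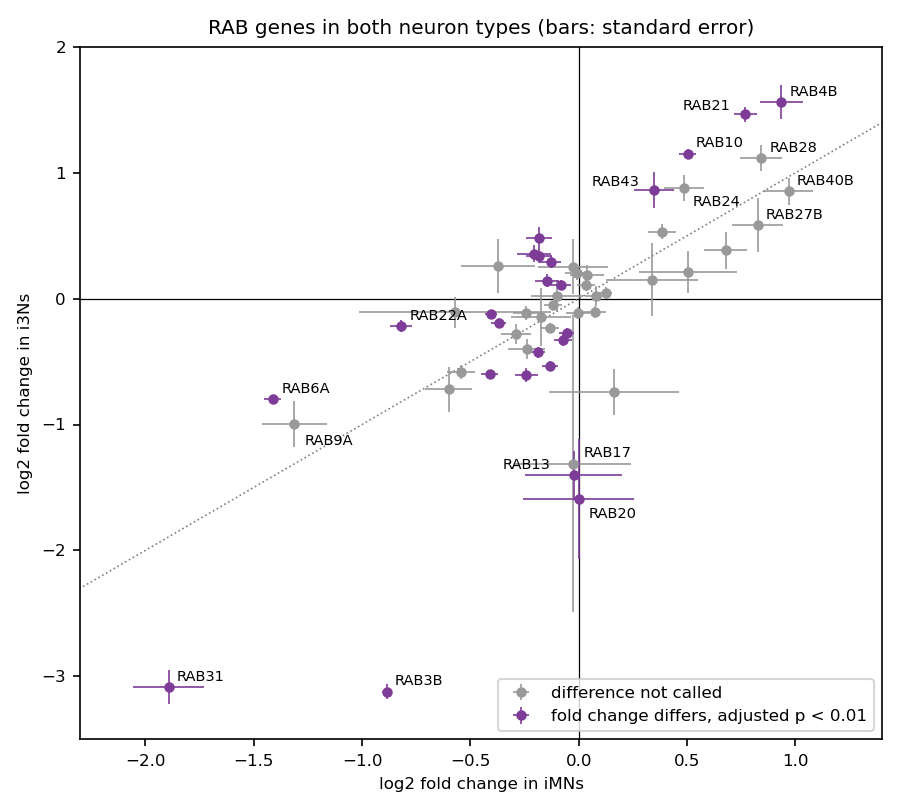
Log2 fold change after SMN-KD in i3Ns (y axis) against iMNs (x axis) for the 54 RAB genes in both tables, with standard errors as bars. Purple marks the 24 genes whose fold changes differed between neuron types and the dotted line marks equality. RAB3B and RAB31 lie far below the line, and RAB21, RAB10 and RAB4B above it.

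Among the other paralogue pairs, the fold change of RAB4A minus that of RAB4B was -1.68 (95% interval -1.96 to -1.40) in i3Ns, with the limit on RAB4B counts given above. RAB9A minus RAB9B was -1.39 (-1.70 to -1.09) in iMNs and -1.02 (-1.41 to -0.62) in i3Ns.

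An shRNA guide can also lower mRNAs whose 3′-UTR pairs with bases 2 to 8 of the guide, its seed, as a microRNA does. The 3′-UTRs of the RAB genes were therefore searched, on the transcript strand, for CTAATAA (guide bases 2 to 8 of the SMN shRNA) and GCTAATA (bases 3 to 9), which overlap in the 8 bases GCTAATAA. The guide was taken as the antisense strand of the stated target. The following sites are shown because RAB6A and RAB9A, both DEGs in iMNs, and the near copies of RAB6A hold the 8-base match. RAB21, which rose in each neuron type, holds the 8-base match too, and its sites are shown after these. Capitals mark the match, all sites lie in the last exon within the 3′-UTR, and coordinates are those of the match on GRCh38.

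RAB6A, chr11:73676331-73676338, minus strand: ttgctgtgtaaGCTAATAAacacatttgta
RAB6C, chr2:129982297-129982304, plus strand: ttgctgtgtaaGCTAATAAacacatttgta
RAB6D, chr2:131361544-131361551, minus strand: ttgctgtgtaaGCTAATAAacacatttgta
RAB9A, chrX:13709452-13709458, plus strand: tgtatcatctaCTAATAAaattaaactaa
RAB9A, chrX:13709572-13709578, plus strand: gtaacagttgtCTAATAAcgtttctttaa
RAB9A, chrX:13709611-13709618, plus strand: taagttgcagaGCTAATAAatgaaatgacc

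The flanks of the RAB6A, RAB6C and RAB6D sites are the same 30 bases, and RAB9A holds 3 matches within its first 300 bases of 3′-UTR. The next sites belong to other RAB genes with large changes, of which RAB31, RAB3B and RAB22A fell and RAB21, RAB40B and RAB27B rose.

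RAB31, chr18:9860270-9860276, plus strand: tgggcaaacttCTAATAAtaacaattaat
RAB31, chr18:9861621-9861627, plus strand: ttcctggctgtCTAATAAttgaaccataa
RAB31, chr18:9862530-9862536, plus strand: actgattcataCTAATAAatattttcagt
RAB3B, chr1:51917333-51917339, minus strand: ctcttttggcaCTAATAActcggtgtctc
RAB3B, chr1:51911541-51911547, minus strand: aatgtatctttCTAATAAaaccccccttt
RAB3B, chr1:51910893-51910899, minus strand: gtcacagaaagGCTAATAgacagcaaagt
RAB22A, chr20:58363991-58363997, plus strand: tgtcttgacttCTAATAAtataaatccag
RAB22A, chr20:58365824-58365830, plus strand: ccccacacccgGCTAATAttttttgtatt
RAB21, chr12:71793836-71793843, plus strand: ctaggttctagGCTAATAAtttactacttt
RAB21, chr12:71796681-71796687, plus strand: tcatgttgtacCTAATAAgtgtgtagttt
RAB40B, chr17:82656655-82656661, minus strand: cacatatcggaGCTAATAcacgacactgg
RAB40B, chr17:82656127-82656133, minus strand: aaaccccgtctCTAATAAaattacaaaaa
RAB27B, chr18:54894785-54894791, plus strand: caaactaaaatCTAATAAaaaaccacagt

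RAB31 and RAB3B hold 3 matches each, RAB22A, RAB21 and RAB40B 2 each and RAB27B 1. RAB21 has a 3′-UTR of 14613 bases and RAB3B has one of 11971 bases. Of the genes with sites shown, RAB9A, RAB21 and RAB27B also match the scrambled guide. Such matches are letters in a sequence and were not tested as binding sites.

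Among RAB genes with a mean of at least 100, 18 of 49 (36.7%) in iMNs and 17 of 50 (34%) in i3Ns had a match of either kind. Among all genes of that level the shares were 20.0% and 20.0%. In iMNs, 10 of the 18 fell and 4 rose, with a median log2 fold change of -0.35, and of the 31 without a match 10 fell and 7 rose, with a median of -0.06. In i3Ns, 10 of the 17 fell and 4 rose (median -0.22), and of the 33 without, 10 fell and 11 rose (median 0.02). Over all genes the medians with and without a match were -0.17 and 0.04 in iMNs and -0.21 and 0.05 in i3Ns. Of all genes with a match, 46.7% fell in iMNs and 50.4% in i3Ns, and of those without, 18.2% and 29.6%, beside 55.6% and 58.8% of RAB genes with a match and 32.3% and 30.3% of those without. All 3 RAB DEGs of iMNs had a match, as did 72% of the 293 lower DEGs of that level in iMNs. Of the lower RAB DEGs of that level in i3Ns, RAB3B and RAB31 had a match and RAB13 did not. There, 36.8% of all 1116 lower DEGs had a match. Of the higher RAB DEGs in i3Ns, RAB21 had a match and RAB10, RAB28 and RAB4B had none to the SMN guide. RAB genes with a match had longer 3′-UTRs, with a median of 4153 bases against 1930 in iMNs.

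Matches to the scrambled guide, CTAGTAA or ACTAGTA, were found in 9 RAB genes of that level (18.4% in iMNs and 18% in i3Ns). Of all genes of that level, 12.2% held such a match in each neuron type. The 9 RAB genes were RAB2B, RAB3C, RAB4A, RAB8B, RAB9A, RAB10, RAB18, RAB21 and RAB27B, of which 6 also match the SMN guide. Among all genes that match the scrambled guide only, the median log2 fold change was 0.18 in iMNs and 0.32 in i3Ns. Among the 3 RAB genes of that class it was -0.13 and 0.29. RAB10 holds 2 matches to the scrambled guide and none to the SMN guide, and it rose in each neuron type. RAB2A, RAB3A, RAB7A, RAB11B, RAB33B and RAB35 fell in each neuron type without a match to the SMN guide. RAB1A, RAB13, RAB15, RAB20, RAB34 and RAB37 fell without one in i3Ns only, and RAB4A and RAB14 in iMNs only. RAB33A and RAB40C, called in opposite directions, had none either. RAB12, RAB24, RAB28, RAB43 and RAB4B rose in each neuron type without a match to either guide. Whether the guide contributes to any RAB change was not tested, since the tables hold a single SMN shRNA.

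**Figure D4:**
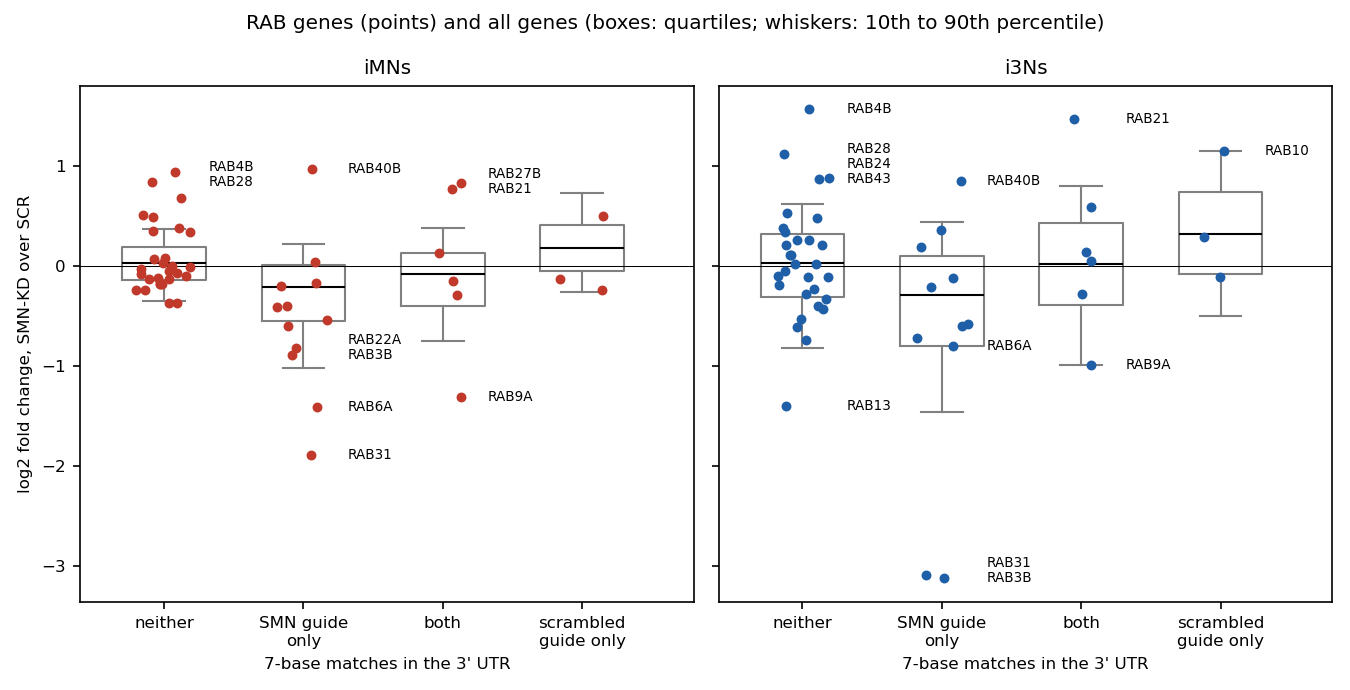
Log2 fold change after SMN-KD relative to SCR (y axis) for RAB genes with a mean of at least 100 (points), by whether the 3′-UTR holds a 7-base match to the SMN guide, to the scrambled guide, to both or to neither. Boxes give the quartiles of all genes in each class and whiskers their 10th and 90th percentiles. RAB31, RAB6A and RAB3B sit low in the class with an SMN match only, and RAB40B sits high in it.

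Partners of the RAB cycle were counted against the same shares of all genes, 18.7% lower and 17.1% higher in iMNs and 25.7% and 22.8% in i3Ns, or 23.1%, 21.2%, 32.8% and 31.5% at a mean of at least 100. Of 8 genes for prenylation and membrane extraction, 4 fell (50%) and 1 rose (12.5%) in iMNs, and 5 fell (62.5%) and 0 rose in i3Ns. CHM, an escort protein that presents new RABs for prenylation, went from 2303 to 1292 in iMNs (-0.83, SE 0.08) and from 2384 to 822 in i3Ns (-1.54, SE 0.07). RABIF, which stabilises nucleotide-free RABs, fell from 1121 to 503 in iMNs (-1.16, SE 0.10) and also fell in i3Ns (-0.65, SE 0.08). GDI2, a GDP dissociation inhibitor, fell from 17806 to 10584 in i3Ns (-0.75, SE 0.04) and also fell in iMNs (-0.17, SE 0.04).

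Of 42 GEF genes, 12 fell (28.6%) and 8 rose (19.0%) in iMNs and 17 fell (40.5%) and 11 rose (26.2%) in i3Ns, shares not far from those of all genes with a mean of at least 100. This count includes RAB3GAP1 and RAB3GAP2, named as GAP genes, which fell in each neuron type and are not in the GAP count below. C9orf72, an ALS gene that was counted here with the GEF genes, fell in iMNs from 2107 to 1269 (-0.73, SE 0.06). In i3Ns it fell from 2075 to 1537 (-0.43, SE 0.06). RIN2 fell in iMNs (-0.71, SE 0.08) and RIN1 in i3Ns (-1.96, SE 0.20), and both are exchange factors for RAB5. Neither passed in the other neuron type (RIN2 -0.04, SE 0.07, in i3Ns and RIN1 0.04, SE 0.20, in iMNs).

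Of the GAP genes, 12 of 35 fell (34.3%) and 4 rose (11.4%) in iMNs, and 12 of 36 fell (33.3%) and 11 rose (30.6%) in i3Ns, the latter near the shares of all genes with a mean of at least 100. TBC1D19 fell from 1332 to 1000 in iMNs and from 2168 to 967 in i3Ns. USP6NL, a GAP for RAB5, fell in iMNs (-0.40, SE 0.08) and in i3Ns (-0.67, SE 0.07). TBC1D2, a GAP for RAB7, rose in i3Ns (1.16, SE 0.22) and did not pass in iMNs (0.57, SE 0.30). Of 57 effector genes, 19 fell (33.3%) and 4 rose (7.02%) in iMNs and 18 fell (31.6%) and 19 rose (33.3%) in i3Ns, again near those shares in i3Ns. RABGAP1, which fell in each neuron type, is in both the GAP and the effector counts. The RAB11 effector RAB11FIP2 fell in iMNs from 3813 to 1731 (-1.14, SE 0.06) and in i3Ns from 4182 to 2152 (-0.96, SE 0.08). Another, RAB11FIP5, rose in i3Ns from 1386 to 3865 (1.48, SE 0.05) and in iMNs from 2495 to 3908 (0.65, SE 0.06). The RAB27 effector SYTL5 fell in iMNs (-1.48, SE 0.21) and in i3Ns (-2.71, SE 0.34), as did SYTL2 (-0.48, SE 0.18, and -1.72, SE 0.23). Singled out after their values were seen, the RAB27 effector UNC13D rose in i3Ns from 43.0 to 88.2 (1.04, SE 0.33), and the RAB3 effector RPH3A (rabphilin) fell in iMNs from 1520 to 694 (-1.13, SE 0.10) and rose in i3Ns from 231 to 480 (1.06, SE 0.15).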

How the data were processed

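Total RNA from 12 rRNA-depleted libraries was sequenced as paired ends. The authors used fastp for trimming, Salmon for transcript abundance and DESeq2 to compare the groups within each neuron type. Versions, annotation, strand setting and low-count filter are not given in the sources used here. Per the file headers, the deposited values are a size-factor normalized signal (the mean count over 6 libraries), a log2 fold change that appears shrunken, its standard error, the p-value and its adjusted p-value. These comparison columns were read as deposited, and no test within a neuron type was rerun.

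RAB genes were matched on the symbol, and tables on the Ensembl identifier. Group levels assume 3 libraries per group. Over RAB genes, fold change over standard error was in the median 0.975 (iMNs) and 0.995 (i3Ns) of the z of the deposited p-value, and levels of weakly expressed genes may understate a change. Differences between neuron types were tested as a z from both fold changes and errors, two-sided, with Benjamini-Hochberg adjustment over 16093 genes. Lengths, shared 31-base words and 3′-UTRs came from GENCODE 44 (GRCh38). Named genes were DEGs, the largest changes and differences above a mean of 100, the highest levels, the RAB3, RAB5, RAB7A, RAB11 and RAB27 genes, and genes with 8-base or both 7-base matches. Other RABs are given so that each is accounted for. A partner gene that the rule names is not reported here. Members and lists were chosen with earlier results of these data known. Python 3.11.15, pandas 2.3.3, NumPy 2.4.6 and SciPy 1.17.1 were used.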

Additional observations from a re-analysis of the deposited data

Results flagged for a closer look

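Of 26 named RAB genes in both tables, 16 had a log2 fold change that differed between i3Ns and iMNs at an adjusted p under 0.01 (Wald z of the difference). The fold change in i3Ns minus that in iMNs was negative for 7 of them, at -2.24 for RAB3B, -1.59 for RAB20, -1.38 for RAB13, -1.19 for RAB31, -0.40 for RAB7A, -0.24 for RAB3A and -0.19 for RAB11A. It was positive for the others, at 0.18 for RAB11B, 0.19 for RAB3D, 0.28 for RAB6B, 0.60 for RAB22A, 0.61 for RAB6A, 0.63 for RAB4B, 0.65 for RAB10, 0.66 for RAB33A and 0.70 for RAB21. With standard errors doubled, 7 of the 16 differences still passed. Neuron type, stem cell line and differentiation protocol cannot be told apart in these differences.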

How the results depend on the processing

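No paired analysis was possible because the tables hold no values of single libraries, and for the same reason no library could be left out and no other normalization tried. Counts of RAB genes that fell and rose kept within 1.5 times the main count at adjusted p-values under 0.05 or 0.001. They did so too with a mean of at least 100. Restriction to the main chromosomes removed no RAB gene. Centring on the median of genes with a mean of at least 100 (0.006 in iMNs and 0.01 in i3Ns) kept the deposited adjusted p-values and changed no count. Neither of these settings was thus a test of the calls. A minimum absolute log2 fold change of 0.5 left 14 changed in iMNs (7 lower, 7 higher) and 22 in i3Ns (13 lower, 9 higher). A minimum of 1 left 3 in iMNs (3 lower, 0 higher) and 9 in i3Ns (5 lower, 4 higher). With standard errors doubled, 16 remained called in iMNs (9 lower, 7 higher), 19 in i3Ns (11 lower, 8 higher) and 7 differed between neuron types. Of the values of single named genes, 15 no longer passed with doubled errors and none changed sign. The number of RAB genes with at least 1000 counts per kilobase was 22 in each neuron type, and 21 by the longest transcript. Levels of single genes could move more, as that of RAB4B in iMNs did (643 and 376 per kilobase). For RAB3A, RAB3B, RAB3C and RAB3D both lengths were the same, so their shares could not change. Genes with a match to the SMN guide stayed at 18 in iMNs and 17 in i3Ns with the longest 3′-UTR. Weakly expressed RABs, such as RAB20, RAB37 and RAB38, carry the widest errors.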

Other observations

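LRRK2, the kinase that phosphorylates several RABs including RAB10 and RAB29, was singled out after its values were seen. It was weakly expressed, at 18.0 in SCR and 96.1 in SMN-KD i3Ns (log2 fold change 2.42, SE 0.51, adjusted p = 2.26e-07, DESeq2 Wald test), and in iMNs at 49.1 and 58.4 (0.25, SE 0.30, adjusted p = 0.228). VPS35, a retromer subunit that acts with RAB7A on endosomes, fell in each neuron type (-0.25, SE 0.05, in iMNs and -0.28, SE 0.05, in i3Ns). PPM1H, a phosphatase that reverses RAB phosphorylation, rose in iMNs from 2248 to 3196 (0.51, SE 0.06), and its value in i3Ns was 0.04 (SE 0.07, adjusted p = 0.653). LRRK1 passed in neither neuron type.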
